A study of Homo sapiens with 4 samples.

Results

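The human alkaline phosphatase family has 4 genes, ALPP, ALPG, ALPI and ALPL, and all 4 symbols were found among the 28278 genes of the deposited table. ALPP encodes the placental enzyme, ALPG (older name ALPPL2) the germ cell enzyme, ALPI the intestinal enzyme and ALPL the tissue-nonspecific enzyme of liver, bone and kidney. ALPP and ALPG were singled out because of their levels in these same libraries, and ALPI and ALPL joined them as the rest of the family. The levels of the 4 genes are therefore given as a description. No p-value is given for any of them, and the counts of members that passed the tests across all genes are listed without anything being read from them.

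Alkaline phosphatases are zinc enzymes that sit on the outer face of the plasma membrane, held there by a glycosylphosphatidylinositol (GPI) anchor, and they remove phosphate from many substrates. The placental enzyme normally comes from the syncytiotrophoblast of the placenta, and it can also be made by tumours and by cancer cell lines that have no placental origin. In normal liver the enzyme on the bile canaliculus is the product of ALPL, which also hydrolyses pyrophosphate and pyridoxal phosphate, a form of vitamin B6.

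RNA sequencing of polyA RNA was done in 4 libraries labelled HepG2, a line from a human liver cancer, each from cells that carried a lentiviral short hairpin RNA. The cells had a Control hairpin (1 library), ATF7IP hairpin 1 or ATF7IP hairpin 2 (1 library each) or a SETDB1 hairpin (1 library). All cells, Control included, were given sorafenib, a multikinase inhibitor, at 10 µM for 48 h, so no untreated level was available. ATF7IP is a partner of SETDB1, which methylates histone H3 at lysine 9, a mark of silent chromatin. No label says whether a cell population came from separate infections or was 1 clone, and the spread between the ATF7IP libraries mixes hairpin, population and library.

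The libraries held 70236882 to 73791097 counts. The low values piled up at multiples of 4 (489 Control genes at 4 counts, against 288 at 3 and 265 at 5), so about 4 counts per sequenced fragment were assumed. A gene at or under 3 such fragments, or 12 counts, was treated as not detectable, a floor of 0.156 to 0.173 CPM (normalised read count, scaled to a common library size) depending on the library. ATF7IP was at 59.1 CPM in Control, 18.3 and 18.8 CPM in its own hairpins and 97.8 CPM in the SETDB1 library. SETDB1 was at 47.7 CPM in Control, 52.1 and 46.8 CPM in the ATF7IP hairpins and 11.99 CPM in its own knockdown. The liver label did not match the hepatocyte markers: 16 of 24 were at or under the floor in all 4 libraries, among them ALB, APOA1, APOB, AFP, TTR and HNF4A. The summed level of the 24 markers was 586, 509, 445 and 223 CPM in Control, hairpin 1, hairpin 2 and SETDB1 knockdown, and CPS1 alone, an enzyme of the urea cycle, gave 583, 503, 441 and 218 CPM of it. The cells are therefore called here by their label only.

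ALPP, ALPG and ALPI lie in 1 row on the plus strand of chromosome 2 and ALPL is on chromosome 1 (GRCh38, RefSeq). ALPP runs from 232378751 to 232382889, ALPG from 232406844 to 232410714 and ALPI from 232456153 to 232460753, a stretch of 82003 bases in all. The matched GENCODE transcript of each of these 3 genes has 11 exons. ALPL, from 21508984 to 21578410 on the plus strand of chromosome 1, has 12 exons in its matched transcript. The promoters of the 3 clustered genes are shown because their mRNA levels differed from Control in the same direction. Each sequence below covers 250 bases before to 50 bases after the annotated start (RefSeq, GRCh38.p14, plus strand), and capitals mark the longest run that all 3 share.
ALPP, chr2:232378501-232378800: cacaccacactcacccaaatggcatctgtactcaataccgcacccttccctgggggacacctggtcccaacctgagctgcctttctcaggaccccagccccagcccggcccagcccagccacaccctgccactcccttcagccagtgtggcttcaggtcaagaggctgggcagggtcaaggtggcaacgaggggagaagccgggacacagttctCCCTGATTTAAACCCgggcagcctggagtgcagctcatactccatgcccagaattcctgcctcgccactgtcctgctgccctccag
ALPG, chr2:232406594-232406893: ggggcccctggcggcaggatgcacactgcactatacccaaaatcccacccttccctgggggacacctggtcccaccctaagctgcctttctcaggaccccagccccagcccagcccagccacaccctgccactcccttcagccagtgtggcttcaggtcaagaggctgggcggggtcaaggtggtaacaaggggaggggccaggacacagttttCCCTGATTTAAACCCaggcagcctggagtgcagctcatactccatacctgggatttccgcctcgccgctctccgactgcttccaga
ALPI, chr2:232455903-232456202: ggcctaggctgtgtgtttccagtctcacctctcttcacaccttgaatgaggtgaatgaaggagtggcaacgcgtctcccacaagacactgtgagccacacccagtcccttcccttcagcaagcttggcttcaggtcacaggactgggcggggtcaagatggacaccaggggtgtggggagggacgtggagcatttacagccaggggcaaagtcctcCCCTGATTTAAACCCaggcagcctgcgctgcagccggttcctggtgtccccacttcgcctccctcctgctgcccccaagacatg

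The shared run of 15 bases ends 21 bases before the start of ALPP and of ALPG and 19 bases before that of ALPI. Of 35116 RefSeq promoter windows of this length, 3 held it on either strand, those of the 3 genes printed. Aligned over 278 bases, the ALPP and ALPG promoters were identical at 89.9% of positions. The ALPP and ALPI promoters were identical at 75.1% of 249 aligned positions. Of the motifs searched on both strands, the TATA-like element TTTAAA occurred once in each of the 3 windows, inside the capitals, and in 12.2% of all windows. AGGTCA, a half-site of nuclear receptors, also occurred once in each of the 3, and in 13.8% of all windows. CACCC, a box bound by KLF factors, occurred 3 times in ALPP, 3 in ALPG and 2 in ALPI, and in 59.9% of all windows. GCCNNNGGC, the motif of TFAP2 factors, occurred 0 times in ALPP and 1 time each in ALPG and ALPI, and in 23.2% of all windows. No occurrence overlapped that of another of these motifs, and the matches describe letters only.

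The likeness extends through the transcripts and bears on how fragments are counted. The ALPP and ALPG transcripts, of 2971 and 2493 bases, were identical at 91.8% of 2454 aligned bases. Of all 50-base windows of ALPG, 29.3% also occurred in ALPP, and of all 100-base windows 15.8%. ALPI, of 2550 bases, shared 1.52% of its 50-base windows with ALPP and 0 of its 2451 windows of 100 bases. ALPL shared 0 windows of either length with ALPP. How the authors' counting divided fragments between copies is not given in the sources used here, so ALPP and ALPG are uncertain as single genes and are also given as a sum.

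ALPP, the placental enzyme, was the most abundant alkaline phosphatase mRNA in all 4 libraries. It had 31420 counts in Control, 5217 in ATF7IP hairpin 1, 1609 in ATF7IP hairpin 2 and 13989 in SETDB1 knockdown. In CPM these were 452 (95% counting interval 442 to 462), 73.9 (69.96 to 78.1), 20.96 (18.95 to 23.1) and 197 (190.1 to 203). Control was the highest library, SETDB1 knockdown stood between it and the ATF7IP libraries, and no interval overlapped another. Control exceeded hairpin 1 by 6.11-fold (95% counting interval 5.76 to 6.49), hairpin 2 by 21.6-fold (19.5 to 23.9) and SETDB1 knockdown by 2.30-fold (2.21 to 2.39). The ATF7IP libraries themselves differed by 3.53-fold (3.15 to 3.96), which is larger than the gap between Control and SETDB1 knockdown. All such intervals cover counting error only, not the spread between cultures.

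ALPG, the germ cell enzyme, kept the same order at a much lower level. It had 1140 counts in Control, 82 in hairpin 1, 0 in hairpin 2 and 586 in SETDB1 knockdown. That was 16.4 CPM (14.6 to 18.4), 1.16 CPM (0.693 to 1.75), 0 CPM (the floor of 3 fragments is 0.156) and 8.24 CPM (6.93 to 9.65). ALPG was thus detectable in 3 of the 4 libraries. Control exceeded hairpin 1 by 14.1-fold (9.19 to 24.04) and SETDB1 knockdown by 1.99-fold (1.63 to 2.46). Against the floor in hairpin 2, 12 counts in that library, Control was at least 105-fold higher, SETDB1 knockdown at least 52.7-fold higher and hairpin 1 at least 7.44-fold higher.

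Summed, ALPP and ALPG were at 468 CPM in Control, 75.1 in hairpin 1, 20.96 in hairpin 2 and 205 in SETDB1 knockdown. ALPG was the minor partner throughout, and the sum kept the order of ALPP. Of the fragments of the pair, ALPG took 3.50% in Control (exact 95% interval 3.11 to 3.92), 1.51% in hairpin 1 (0.924 to 2.32), 0 of 402 in hairpin 2, where the floor of 3 fragments is a share of 0.746%, and 4.01% in SETDB1 knockdown (3.39 to 4.70). The intervals of Control and SETDB1 knockdown overlapped, and both lay above that of hairpin 1. Because the copies share stretches of sequence, this share also depends on how shared fragments were assigned.

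ALPI, the intestinal enzyme, was low but above the floor in all 4 libraries, and closest to the floor in hairpin 2. It had 212 counts in Control, 83 in hairpin 1, 28 in hairpin 2 and 84 in SETDB1 knockdown, or about 53, 21, 7 and 21 fragments. In CPM these were 3.05 (2.28 to 3.99), 1.18 (0.737 to 1.82), 0.365 (0.147 to 0.751) and 1.18 (0.731 to 1.81). The interval of Control did not overlap those of the knockdown libraries, while hairpin 1 and SETDB1 knockdown were indistinguishable, with a ratio of 1.00 (0.515 to 1.91). Control exceeded hairpin 1 by 2.59-fold (1.52 to 4.47), hairpin 2 by 8.36-fold (3.79 to 21.8) and SETDB1 knockdown by 2.58-fold (1.53 to 4.51). ALPI made up 0.647% of the fragments of the 3 clustered genes in Control (exact 95% interval 0.485 to 0.845), 1.56% in hairpin 1 (0.968 to 2.38), 1.71% in hairpin 2 (0.691 to 3.49) and 0.573% in SETDB1 knockdown (0.355 to 0.875). The interval of hairpin 1 lay above those of Control and of SETDB1 knockdown, and that of hairpin 2, from 7 fragments, overlapped the interval of every other library. Stray fragments of ALPP counted as ALPI were not measured.

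ALPL, the tissue-nonspecific enzyme and the usual alkaline phosphatase of liver, was not detectable at this depth. It had 0 counts in Control, in hairpin 1 and in SETDB1 knockdown, and 5 in hairpin 2, all under the floor. The floor of 3 fragments is 0.173 CPM in Control, 0.17 in hairpin 1, 0.156 in hairpin 2 and 0.169 in SETDB1 knockdown. No fold change is given for ALPL, and it did not pass the filter on low counts, while the other 3 members did.

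Per kilobase of transcript, which allows genes to be compared, Control held 152 CPM per kilobase of ALPP, 6.58 of ALPG and 1.196 of ALPI. The order ALPP, ALPG, ALPI also held in SETDB1 knockdown, at 66.2, 3.30 and 0.463 CPM per kilobase. In hairpin 1 ALPG and ALPI no longer differed, at 0.466 and 0.461 CPM per kilobase, with ALPP at 24.9. In hairpin 2 ALPP was at 7.05 and ALPI at 0.143 CPM per kilobase, and ALPG was at 0 counts.

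On the log2 CPM scale with a prior count of 2, the mean of the ATF7IP libraries was below Control by −3.52 for ALPP, with an SD of 1.29 between the 2 ATF7IP libraries. The same difference was −2.16 for ALPI, with an SD of 1.14, and −3.56 for the ALPP and ALPG sum, with an SD of 1.30. SETDB1 knockdown was below Control by −1.2 for ALPP, −0.99 for ALPG and −1.35 for ALPI, with 1 library on each side. Between the knockdowns, SETDB1 exceeded hairpin 1 by 2.66-fold (95% counting interval 2.50 to 2.84) and hairpin 2 by 9.38-fold (8.46 to 10.4) for ALPP, while for ALPI it exceeded hairpin 2 by 3.24-fold (1.33 to 9.01). The comparisons of each knockdown with Control share the single Control library, so a high value there would enter all of them.

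Of the 3 members tested, 3 were at least 2-fold lower than Control in both ATF7IP hairpins, against 1.57% of the 13132 genes with a mean of at least 1 CPM. At least 2-fold lower in SETDB1 knockdown were 2 of the 3, ALPP and ALPI, against 1.84% of those genes, and the same 2 were lower by that size in all 3 knockdown libraries, against 0.35%. The members were chosen from these same values, so nothing is read from these counts. In the quasi-likelihood fit of edgeR, with p-values adjusted by Benjamini and Hochberg over 16900 genes, 0 of the 3 members passed in any comparison. The share of all genes that passed was 0.0769% for the ATF7IP libraries against Control, 0.071% for the SETDB1 library against Control and 0.166% between the knockdowns. DESeq2 also called 0 of the 3, against 1.1%, 0.302% and 1.21% of the genes to which it gave an adjusted p, and limma-trend called 0 members and 0 genes in all. At an unadjusted edgeR p under 0.05, 1 of the 3, ALPI, was lower in the ATF7IP libraries, where 5.47% of all genes were lower and 3.47% higher. In the SETDB1 library 0 of the 3 were past it, where 2.53% of all genes were lower and 2.18% higher. The fit has 1 residual degree of freedom, which comes from the ATF7IP libraries.

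Over the 11054 tested genes whose mean level reached 5 CPM, ALPP had the 10th lowest difference from Control in hairpin 1, the 3rd lowest in hairpin 2 and the 58th lowest in SETDB1 knockdown. ALPG was 8th, 1st (at 0 counts) and 124th from the lowest in the same order. ALPP and ALPG were chosen for their levels in these libraries, so no support is drawn from their ranks. ALPG reached the mean of 5 CPM only through Control and SETDB1 knockdown, which by itself favours a low rank in the hairpins. ALPI, with a lower mean, was not ranked. Between the ATF7IP hairpins, ALPP had the 23rd lowest difference. The order Control, SETDB1 knockdown, hairpin 1, hairpin 2 from high to low, which ALPP and ALPG share, was found in 5.21% of these genes, and 22.7% were highest in Control.

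**Figure D1:**
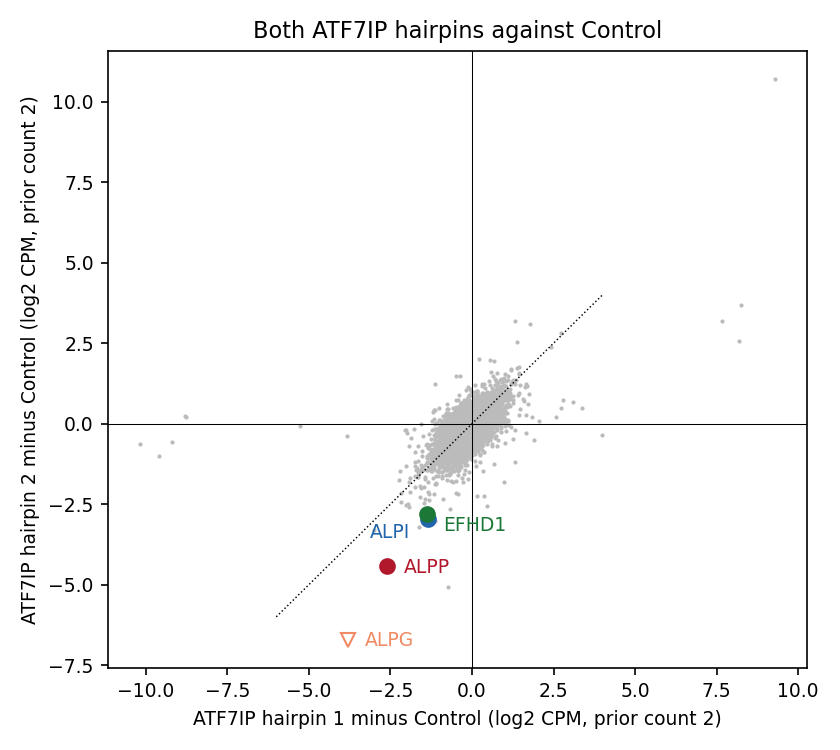
Difference from Control in log2 CPM (prior count 2) for ATF7IP hairpin 1 (x axis) and hairpin 2 (y axis); grey points are genes whose mean level reached 5 CPM, the dotted line marks equal differences, and the open triangle is ALPG, at 0 counts in hairpin 2 and drawn at the floor. ALPP, ALPI and EFHD1 lie at the lower left, below the dotted line, so each was lower in hairpin 2 than in hairpin 1.

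The genes around the cluster were then described, since SETDB1 and ATF7IP act on chromatin. The 300 kb on either side of the cluster held 12 other genes of the table, and 5 of them reached 1 CPM in some library. ECEL1P2, a pseudogene between ALPP and ALPG, had 0 to 4 counts, and so did ECEL1, a neuronal endopeptidase gene beyond ALPI, both under the floor. The muscle acetylcholine receptor gene CHRND, 65407 bases beyond ALPI, had 0 counts in all 4 libraries. DIS3L2, an RNA exonuclease gene and the nearest one before ALPP, 34401 bases away, was expressed, at 19.5, 18.03, 20.5 and 16.1 CPM in Control, hairpin 1, hairpin 2 and SETDB1 knockdown. The transposase-derived gene TIGD1 was at 15.5, 21.8, 22.6 and 12.6 CPM and the cap-binding protein gene EIF4E2 at 57.4, 85.0, 70.2 and 94.6 CPM. GIGYF2, a partner of EIF4E2 in translational repression, was at 106, 80.3, 101.8 and 113 CPM. These 4 genes therefore stayed within 2-fold of Control, and edgeR called 0 of the 5 expressed neighbours in either comparison with Control. At an unadjusted edgeR p under 0.05 there was 1 in ATF7IP knockdown, EFHD1, which was lower, as were 5.47% of all genes. In SETDB1 knockdown there was 1, EIF4E2, which was higher, as were 2.18% of all genes.

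EFHD1 (chromosome 2, 232606057 to 232682776), the gene of a calcium-binding protein of mitochondria, starts 145304 bases beyond ALPI. EFHD1 had 1278 counts in Control, 495 in hairpin 1, 198 in hairpin 2 and 790 in SETDB1 knockdown, or 18.4, 7.02, 2.58 and 11.1 CPM. Its libraries stood in the same order as those of ALPP, although TIGD1 and EIF4E2 lie between it and the cluster. Control exceeded hairpin 1 by 2.62-fold (95% counting interval 2.12 to 3.25), hairpin 2 by 7.13-fold (5.23 to 9.72) and SETDB1 knockdown by 1.66-fold (1.38 to 1.99). The edgeR log2 fold change in ATF7IP knockdown was −1.94 ± 0.53 (SE) and missed the threshold (edgeR adjusted p = 0.334), whereas DESeq2 called it (adjusted p = 0.0298), and over all alternatives the adjusted p ranged from 0.0298 to 0.648. A long noncoding RNA locus that overlaps the start of ALPP was not analysed here.

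**Figure D2:**
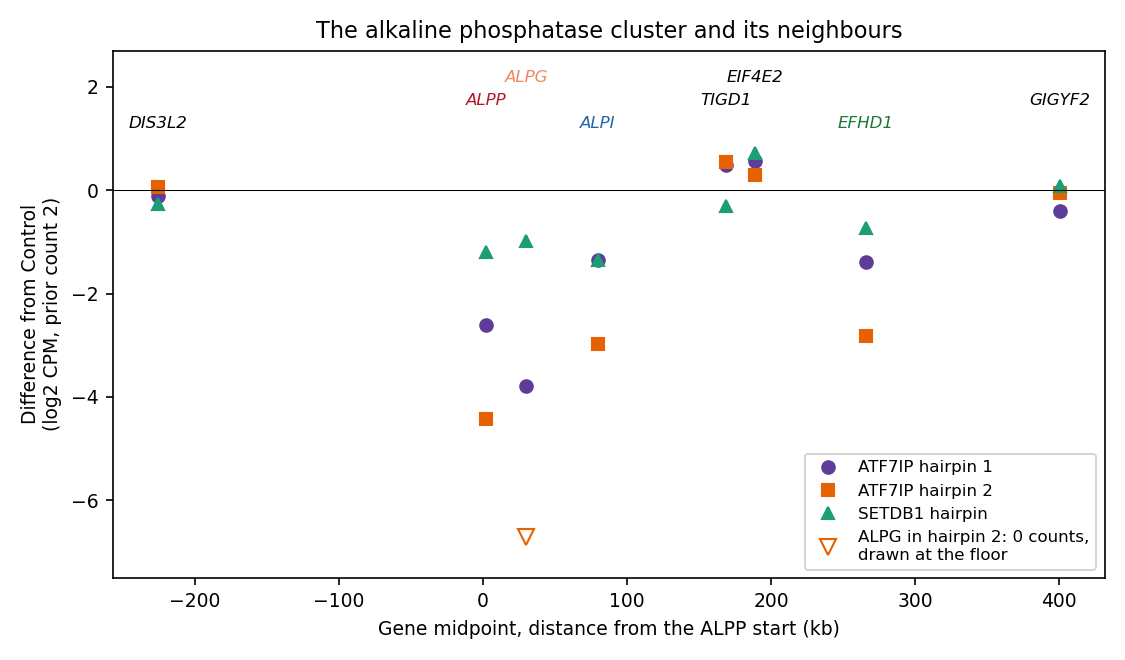
Difference from Control in log2 CPM (prior count 2) for the 3 clustered alkaline phosphatase genes and the 5 expressed neighbours, by distance of the gene's midpoint from the ALPP start in kb; symbols mark the 3 knockdown libraries, and the open triangle is ALPG, at 0 counts in hairpin 2. The alkaline phosphatase genes and EFHD1 lie below 0 in all 3 knockdown libraries, while DIS3L2, TIGD1, EIF4E2 and GIGYF2 stay within 1 log2 unit of 0.

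Around ALPL, 6 of 7 other genes of the table reached 1 CPM, so the silence of ALPL did not extend to its neighbours. NBPF3 on one side was at 14.3, 10.8, 13.7 and 11.8 CPM in Control, hairpin 1, hairpin 2 and SETDB1 knockdown, and RAP1GAP, a GTPase-activating protein gene on the other, at 16.6, 14.6, 12.9 and 17.1 CPM. The endothelin-converting enzyme gene ECE1 was at 215 to 272 CPM and the deubiquitinase gene USP48 at 64.0 to 74.6 CPM. HSPG2, the gene of the basement membrane proteoglycan perlecan, was at 231, 155, 135 and 173 CPM, and LDLRAD2 at 0.604 to 1.35 CPM. edgeR and DESeq2 called 0 of the 6 in either comparison with Control. At an unadjusted edgeR p under 0.05 there was 1 lower in ATF7IP knockdown, HSPG2 (edgeR adjusted p = 0.444), where 5.47% of all genes were lower.

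The genes whose profile over the 4 libraries was most like that of the ALPP and ALPG sum were ranked by the root mean square distance of their centred log2 CPM among 11052 genes with a mean of at least 5 CPM. In order these were MAMDC2, at a distance of 0.632, EFHD1 (0.65), TIMP3 (0.691), ANKRD37 (0.716), UBE2E3 (0.765) and MMP24 (0.792). MAMDC2 was at 51.0, 6.28, 5.15 and 17.6 CPM in Control, hairpin 1, hairpin 2 and SETDB1 knockdown. TIMP3, an inhibitor of metalloproteinases, was at 169, 44.4, 27.8 and 175 CPM, lower than Control in the ATF7IP libraries and near it in SETDB1 knockdown. UBE2E3, a ubiquitin-conjugating enzyme gene, was at 45.1, 16.5, 8.92 and 37.2 CPM. EFHD1 was thus the second most alike gene and the only one of these 6 from the 300 kb around the cluster. The profiles share the same 4 libraries, and no test is attached to them.

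The other placental genes stood on both sides of Control. Of 60 trophoblast and placental genes, 36 were tested and 24 were at or under the floor in all 4 libraries, among them GCM1, the transcription factor of the syncytiotrophoblast, CYP19A1, placental aromatase, the placental lactogen genes CSH1 and CSH2, and ERVFRD-1, which encodes syncytin-2. In ATF7IP knockdown 20 of the 36 had a log2 fold change above 0 and 16 below, with a median of 0.06 (0 with genes at 0 counts set to their bound), against 0.02 over all genes tested. edgeR called 0 of the 36. At an unadjusted edgeR p under 0.05, 4 were higher and 6 lower, against 3.47% and 5.47% of all genes. The 4 were PSG1, PSG3, PSG9 and PLAC1, and the 6 were PAPPA, PSG4, PSG5, PLAC8, XAGE2 and XAGE3. PAPPA was at 54.9, 21.1, 35.1 and 47.2 CPM in Control, hairpin 1, hairpin 2 and SETDB1 knockdown. PLAC8 was at 42.5, 30.2, 18.1 and 52.2 CPM, and XAGE3 had 18, 0, 0 and 19 counts. DESeq2 called 2 higher, against 1.1% of the genes to which it gave an adjusted p, and limma-trend 0. In SETDB1 knockdown 24 of 36 lay above 0, with a median of 0.39 (0.36 at the bound), against 0.00 over all genes. There edgeR called 1 higher, PSG9 (adjusted p = 0.0175), where it called 0.071% of all genes. At an unadjusted edgeR p under 0.05, 8 were higher and 0 lower, where 2.18% of all genes were higher and 2.53% lower. DESeq2 called 2 of the 36 higher, PSG9 and PLAC1, against 0.302% of the genes to which it gave an adjusted p, and limma-trend 0. The 8 were PSG1, PSG2, PSG3, PSG5, PSG6 and PSG9, of the near-identical PSG genes of placenta, and PLAC1 and PHLDA2. PSG9 had 0 counts in Control and 227 in SETDB1 knockdown, and PSG1, PSG3 and PSG6 also had 0 in Control. Near-identical genes can share fragments, so the count of each PSG gene is uncertain and the 8 cannot be read as separate changes.

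Single placental genes had unlike profiles. KRT7, a keratin of simple epithelia and trophoblast, was at 1809, 1871, 1007 and 1047 CPM in Control, hairpin 1, hairpin 2 and SETDB1 knockdown. PEG10, an imprinted gene derived from a retrotransposon, was at 202, 143, 168 and 169 CPM. PLAC1, a placental surface protein gene, was lowest in Control, at 1.21, 4.86, 4.10 and 6.13 CPM (edgeR adjusted p = 0.187 in ATF7IP knockdown). CGA, the common subunit of the glycoprotein hormones, was at 0.518, 2.75, 0.729 and 1.64 CPM. Of the 14 trophoblast markers, 8 were at or under the floor throughout, and the summed level of the 14 was 1865, 1896, 1044 and 1099 CPM, nearly all of it KRT7. In bulk RNA, fewer cells with a transcript and less of it per cell cannot be told apart.

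Of the markers of the other tissues that make alkaline phosphatases, some were absent and some were detectable. All 5 enterocyte markers, CDX2, SI, FABP2, CDH17 and LCT, were at or under the floor in all 4 libraries. Of 4 osteoblast markers 3 were at or under the floor, SP7, BGLAP and IBSP, and of 4 germ cell markers 2, NANOG and DDX4. The remaining osteoblast marker, RUNX2, was at 7.03, 8.79, 7.03 and 4.27 CPM in Control, hairpin 1, hairpin 2 and SETDB1 knockdown. The remaining germ cell markers were POU5F1, at 4.26, 6.36, 5.59 and 3.56 CPM, and NANOS3, at 0.374, 0.907, 0.573 and 0.337 CPM. KLF4, a factor that can activate ALPI in gut epithelium, was at 48.7, 39.7, 25.2 and 52.3 CPM (edgeR adjusted p = 0.658 in ATF7IP knockdown), and its relative KLF5 at 218, 191, 199 and 257 CPM. None of the 6 tested enterocyte genes, 11 osteoblast and mineralization genes or 8 germ and stem cell genes was called by edgeR or DESeq2 in either comparison with Control, and limma-trend called 0. At an unadjusted edgeR p under 0.05, ATF7IP knockdown had 1 osteoblast gene lower, where 5.47% of all genes were lower. This was BMP2, at 68.3, 43.9, 48.8 and 80.7 CPM. SETDB1 knockdown had 1 osteoblast gene, SPARC, and 1 enterocyte gene, LGALS4, lower, where 2.53% of all genes were lower. SPARC was at 1.42, 2.15, 1.55 and 0.478 CPM. LGALS4 had 11, 13, 7 and 0 counts, at or near the floor of 12. The medians in ATF7IP knockdown were −0.18 for enterocyte (−0.08 with genes at 0 counts set to their bound), −0.29 for osteoblast and 0.01 for germ cell genes.

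The machinery that attaches the GPI anchor was expressed in full. All 31 listed genes of GPI anchor synthesis and attachment were tested, with a median log2 fold change of 0.09 in ATF7IP knockdown and −0.10 in SETDB1 knockdown, and a summed level of 1355, 1468, 1384 and 1320 CPM. edgeR called 0 of 31 in either comparison, and DESeq2 called 0. At an unadjusted edgeR p under 0.05 in ATF7IP knockdown 1 was higher and 1 lower, against 3.47% and 5.47% of all genes. PIGK, the catalytic subunit of the GPI transamidase, was at 115, 114, 147 and 128 CPM, and DPM1, which supplies mannose for the anchor, at 113, 119, 121 and 134 CPM. PGAP1, which removes an acyl chain from the new anchor, was at 50.2, 15.9, 31.3 and 50.1 CPM (edgeR adjusted p = 0.386 in ATF7IP knockdown). PIGY was at 3.88, 33.5, 6.25 and 2.11 CPM, high in hairpin 1 alone, and its locus is shared with another transcript, so its count is uncertain.

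Genes of other proteins that carry a GPI anchor were measured next. Of 35 such genes 28 were tested, and their median log2 fold change was −0.17 in ATF7IP knockdown and 0.03 in SETDB1 knockdown. edgeR and DESeq2 called 0 of 28 in both. At an unadjusted edgeR p under 0.05 in ATF7IP knockdown 2 were higher and 5 lower, against 3.47% and 5.47% of all genes. CD55, which protects cells from complement, was at 1124, 964, 578 and 916 CPM and CD59, with a like role, at 215, 241, 246 and 247 CPM. The prion protein gene PRNP was at 230, 262, 318 and 327 CPM. RECK, a membrane inhibitor of metalloproteinases, was at 22.3, 11.7, 9.99 and 16.6 CPM (edgeR adjusted p = 0.276 in ATF7IP knockdown). The folate receptor gene FOLR1 was at 1.80, 0.850, 0.508 and 2.07 CPM. It was the only 1 at least 2-fold lower in both hairpins among the 26 with a mean of at least 1 CPM, against 1.57% of all genes with such a mean.

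**Figure D3:**
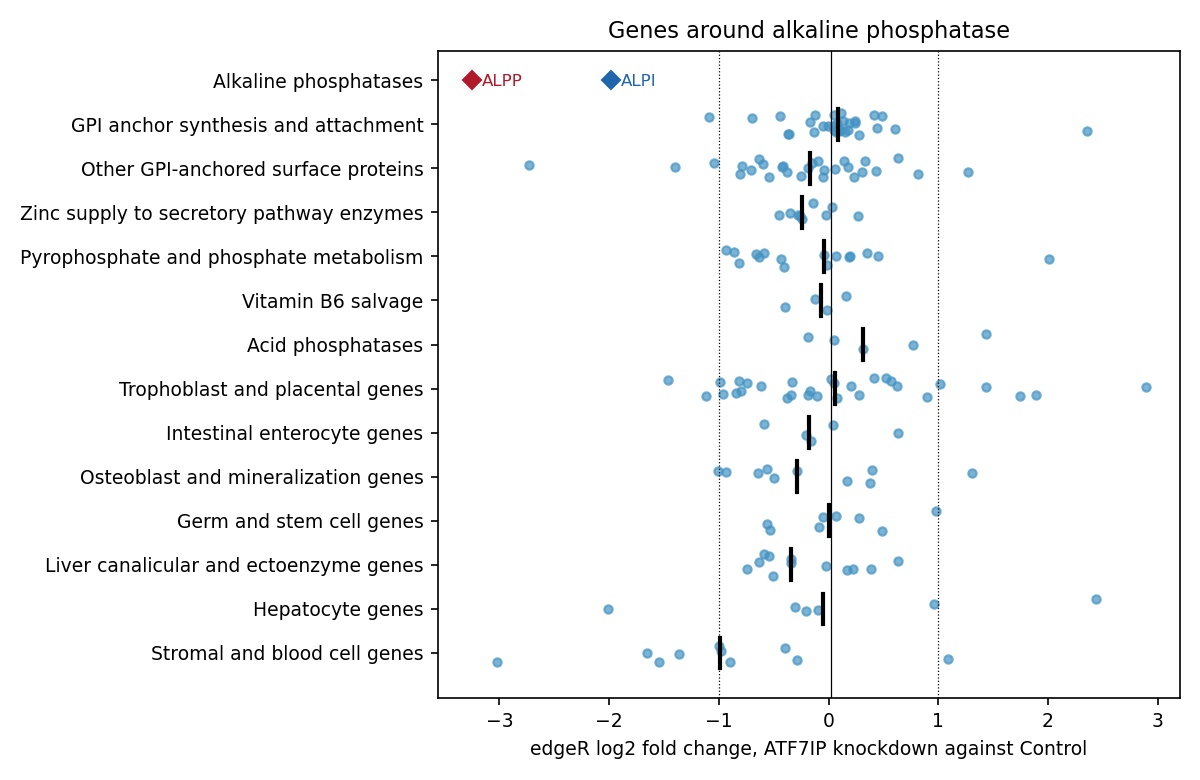
edgeR log2 fold change of ATF7IP knockdown against Control for the tested members of each gene list (points; genes at 0 counts in Control or in both ATF7IP libraries are not drawn), with the list median over all tested members (bars), the median of all genes (solid line) and 2-fold lines (dotted). ALPP and ALPI, the diamonds, lie beyond the lower 2-fold line, while the GPI anchor, zinc and vitamin B6 medians stay between −0.25 and 0.09.

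Zinc reaches alkaline phosphatases in the secretory pathway through the transporters ZnT5, ZnT6 and ZnT7, encoded by SLC30A5, SLC30A6 and SLC30A7. SLC30A5 was at 101.8, 76.5, 95.3 and 90.01 CPM in Control, hairpin 1, hairpin 2 and SETDB1 knockdown, SLC30A6 at 63.01, 53.8, 75.1 and 69.8 CPM, and SLC30A7 at 58.0, 40.4, 44.6 and 63.6 CPM. These levels stayed within 2-fold of Control. Of the 9 tested zinc transporter genes edgeR called 0 in either comparison with Control, with 0 at an unadjusted p under 0.05 and 0 called by DESeq2. The medians were −0.25 in ATF7IP knockdown and −0.03 in SETDB1 knockdown.

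Genes that handle the substrates of alkaline phosphatase were also measured. Of 17 tested genes of pyrophosphate and phosphate metabolism edgeR and DESeq2 called 0 in ATF7IP knockdown. At an unadjusted edgeR p under 0.05 there were 4 lower, where 5.47% of all genes were lower. Those 4 included ENPP1, whose enzyme makes pyrophosphate, at 49.8, 27.7, 27.3 and 55.5 CPM (edgeR adjusted p = 0.315), and ANKH, which exports its precursor ATP, at 142.9, 97.9, 82.5 and 122 CPM (edgeR adjusted p = 0.463). NT5E, a GPI-anchored ectoenzyme that makes adenosine, was at 67.7, 50.4, 37.03 and 135 CPM, highest in SETDB1 knockdown (between the knockdowns edgeR adjusted p = 0.0761, DESeq2 adjusted p = 4.9e-05). The phosphate importer gene SLC20A1 was at 222, 164, 132 and 252 CPM, which makes the fourth. PDXK, which phosphorylates vitamin B6, was at 340.2, 261, 256 and 235 CPM. In ATF7IP knockdown edgeR and DESeq2 called 0 of 4 vitamin B6 genes, with 0 at an unadjusted p under 0.05.

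Of 7 listed acid phosphatase genes, 5 were tested. Their median log2 fold change in ATF7IP knockdown was 0.32, against 0.02 over all genes tested. ACP2, the lysosomal enzyme, was at 15.98, 29.3, 25.3 and 14.4 CPM (edgeR adjusted p = 0.438). ACP5, the tartrate-resistant enzyme of osteoclasts and macrophages, was at 0.892, 2.38, 2.45 and 1.63 CPM (edgeR adjusted p = 0.366). edgeR called 0 of 5, and DESeq2 and limma-trend called 0. These 2 were higher at an unadjusted edgeR p under 0.05, where 3.47% of all genes were higher. ACP1, a cytosolic enzyme, was at 123, 155, 150.4 and 117 CPM.

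Genes of the liver cell surface and of other cell types were set beside the alkaline phosphatases. Of 17 canalicular and ectoenzyme genes 13 were tested, with a median log2 fold change of −0.35 in ATF7IP knockdown (−0.34 at the bound) and 0.35 in SETDB1 knockdown. edgeR called 0 of 13 against Control, and DESeq2 called 0. At an unadjusted edgeR p under 0.05 there were 2 lower in ATF7IP knockdown, where 5.47% of all genes were lower. Of these 2, ABCB4 was at or under the floor in all 4 libraries. In SETDB1 knockdown 2 were higher, where 2.18% of all genes were higher. ABCC2, a canalicular export pump, was at 99.1, 91.2, 140.4 and 142 CPM in Control, hairpin 1, hairpin 2 and SETDB1 knockdown. Between the knockdowns edgeR called 1, where it called 0.166% of all genes. This was MME, a membrane metallopeptidase gene, at 0.849, 0.397, 0.612 and 4.88 CPM (edgeR adjusted p = 0.038). Of 24 hepatocyte genes 8 were tested, with medians of −0.05 in ATF7IP and 0.45 in SETDB1 knockdown (0.43 at the bound). Only 2 of them, CPS1 and ASGR1, had a mean of at least 1 CPM, so these medians rest mostly on genes with few counts. edgeR called 0 of the 8. At an unadjusted p under 0.05 there was 1 in ATF7IP knockdown, CYP2E1, which was higher, as were 3.47% of all genes. In SETDB1 knockdown there were 2, RBP4 and CPS1. RBP4 was higher (0 counts in Control and 23 there) and CPS1 lower (583 CPM in Control and 218 there). Of all genes, 2.18% were higher and 2.53% lower in SETDB1 knockdown at that p. DESeq2 called 1 of the 8 there, CPS1, against 0.302% of the genes to which it gave an adjusted p.

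Most of the tested stromal and blood cell genes stood below Control in the ATF7IP libraries, as ALPP did. Of 15 stromal and blood cell genes 10 were tested and 6 were at or under the floor in all 4 libraries, among them CD3E, HBB and PECAM1. The summed level of the 15 was 153, 75.6, 75.0 and 146 CPM in Control, hairpin 1, hairpin 2 and SETDB1 knockdown, and LUM and COL1A1, a collagen gene, gave most of it in each library. The median log2 fold change was −0.99 in ATF7IP knockdown, with 9 of 10 below 0, and −0.33 in SETDB1 knockdown, with 7 of 10 below 0. Only 6 of the 10 had a mean of at least 1 CPM, so these medians rest in part on genes with few counts. CD14 was the 1 above 0 in ATF7IP knockdown, at 0.633, 0.921, 1.77 and 0.857 CPM. LUM, the gene of the matrix protein lumican, was at 81.6, 25.98, 25.9 and 92.5 CPM. In ATF7IP knockdown against Control edgeR did not call it (adjusted p = 0.0571). DESeq2 did, as 1 of the 10, against 1.1% of the genes to which it gave an adjusted p. edgeR called 0 of 10 against Control. Between the knockdowns it called 1, LUM, higher in SETDB1 knockdown, where it called 0.166% of all genes. At an unadjusted p under 0.05 there were 3 lower in ATF7IP knockdown, where 5.47% of all genes were lower, LUM, DCN (12.8, 4.68, 5.30 and 12.2 CPM) and PDGFRB (6.60, 2.48, 2.05 and 3.35 CPM), and 0 in SETDB1 knockdown. The part of other cells in the level of ALPP was not tested.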

How the data were processed

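The 4 libraries were grouped by their titles (Control 1, ATF7IP knockdown 2, SETDB1 knockdown 1). The authors deposited 1 table of estimated counts per gene symbol, not scaled between libraries and already whole numbers, per the file header and values. HISAT2 2.2.1, StringTie 2.2.1, DESeq2 1.34.0 and hg38 are listed without roles, per the submitters' processing notes. For the annotation and counting step the sources used here give no name. The table had 0 columns of no sample.

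CPM used trimmed mean of M values library sizes. Genes were fitted in edgeR 4.0.16 (R 4.3.3) with the default filterByExpr (minimum count 10), robust dispersions and the quasi-likelihood test over 3 groups, with Benjamini-Hochberg adjustment over 16900 genes and a threshold of 0.05. DESeq2 1.42.0 and limma 3.58.1 (limma-trend) were alternatives, and all were tested on simulated data. The 2 ATF7IP libraries give the only residual degree of freedom, and p-values measure the spread between these samples alone. Counting intervals are exact 95% intervals on fragments. Alignments used Biopython 1.88. Transcript lengths came from GENCODE 29 transcripts matched to RefSeq.

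The members and the 13 lists (278 genes) were chosen with earlier results of these data known. Named genes were the members, the hairpin targets, expressed genes within 300 kb, from each list called members, the 3 most abundant and the 3 with the largest change in ATF7IP knockdown, and the 6 most alike profiles. Outside that rule, SLC30A5, SLC30A6, ECEL1P2, ECEL1, CHRND and the markers and placental genes given as under the floor were picked with their values known, as were the promoter motifs with the sequences known. The same holds for RUNX2, NANOS3, CD14 and the list genes named because of an unadjusted p under 0.05. The profile ranking was not run for ALPL, which was under the floor. Results for some listed genes are not reported here.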

Additional observations from a re-analysis of the deposited data

How the results depend on the processing

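All 64 alternatives for the log2 differences of ALPP, ALPG, ALPI and the ALPP and ALPG sum (size factors, library totals, prior counts of 0.5 and 8, leaving out each ATF7IP library) kept their sign, and all 40 against Control were below 0. Each of the 40 used the same single Control library, and the members were chosen from these same values. No support is therefore drawn from the kept signs. The size of a difference depended on which ATF7IP library was used: for ALPI, SETDB1 minus ATF7IP knockdown was 0.81 with both, 1.62 without hairpin 1 and 0.0051 without hairpin 2. For ATF7IP knockdown against Control edgeR called 13 genes, and 3 with DESeq2 size factors, 1 with no filter, 160 under DESeq2 and 0 under limma-trend (1286 at an unadjusted p under 0.05). Leaving out the SETDB1 library gave 34. For SETDB1 knockdown against Control it called 12 genes, and 7, 0 (787 at an unadjusted p under 0.05), 48 and 0 under the same 4 settings. Between the knockdowns it called 28, and 11, 8, 173 and 0. The cause was not tested. Without Control it called 24. Leaving out an ATF7IP library left no residual degree of freedom, so no test was run there. No paired analysis was possible because only ATF7IP knockdown has more than 1 library. ALPL and ALPG in hairpin 2 are limited by depth.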
